A study of Mus musculus with 4 samples.

Results

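The 44 genes described here encode enzymes of sphingolipid metabolism and small subunits that act with them. They were taken from a list written with earlier results of these data known, so their shares beside those of all genes are only descriptive. Matching to the array was by gene symbol, and the brightest transcript cluster with a single symbol stood for each gene. All 44 were found among the 19938 genes compared. By role, 12 belong to ceramide synthesis, 6 to sphingomyelin turnover, 5 are ceramidases, 9 handle sphingosine-1-phosphate (S1P) and other phosphorylated lipids, and 12 belong to glycosphingolipids and sulfatide. Of the 44 genes, 4 (Sptlc3, Acer1, Ugt8a and Neu2) had a mean signal at or below the 40th percentile of all genes, a log2 signal of 6.96, and are called dim. Because the arrays came without detection calls, it is not known whether a dim signal exceeded background.

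Sphingolipids are built on a long-chain base that serine palmitoyltransferase makes from serine and palmitoyl-CoA. Acylation and desaturation of this base give ceramide, the hub from which cells make sphingomyelin, glucosylceramide and galactosylceramide, and to which their breakdown returns. Ceramidases release sphingosine, and its phosphorylation gives S1P, a lipid that signals through cell surface receptors and is destroyed by a lyase or returned to sphingosine by phosphatases. In epithelia the balance of ceramide and S1P is known to bear on survival and migration, and complex sphingolipids are part of the apical membrane.

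RNA came from 4 cancer cell lines grown from dissociated mouse pancreatic tumours, with 2 lines of each genotype and 1 Affymetrix Mouse Gene 1.0 ST array per line. TPAC lines (K459 and TCPA18654) carried Ela-TGFa, Ptg1a+/CRE, Trp53fl/fl and p65fl/fl, and TPC lines (TPC18645 and TPC20223) carried Ela-TGFa, Ptg1a+/CRE and Trp53fl/fl. Thus all 4 lines share the TGF-α transgene, driven by an elastase promoter of acinar cells, the Cre allele (named p48-Cre in the paper, active in the pancreas) and the floxed p53 alleles, and the genotypes differ in the floxed alleles of RelA/p65, the NF-κB subunit. The cells received no treatment. The age of the mice and whether same-genotype lines were derived from different animals are not stated in the sources used here, so p-values reflect only how much these lines vary.

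Rela, the gene of p65, had a log2 signal of 10.82 in K459 and 11.10 in TCPA18654, against 11.12 in TPC18645 and 10.70 in TPC20223, but the cluster sums probes along the transcript and does not check the deletion. The line TPC20223 stood apart: the mean log2 signal over 12 ductal and epithelial markers was 11.00 in K459, 9.74 in TCPA18654 and 9.60 in TPC18645, and 7.17 in TPC20223, where 9 of the 12 were lowest. Krt19, the ductal cytokeratin gene, was at 12.65 in K459 and 11.79 in TCPA18654, against 11.74 in TPC18645 and 6.08 in TPC20223. Not all markers parted the lines so: Epcam was at 9.77 in K459 and 7.37 in TCPA18654, against 6.82 in TPC18645 and 6.43 in TPC20223. TPC20223 was at least 2-fold below every other line in 6 of the 12, and K459 at least 2-fold above every other line in 6. Vim, a mesenchymal marker, was at 13.79 to 13.91 in all lines. Of 15 mesenchymal and fibroblast markers, 12 were highest in TPC20223, with a mean of 9.52 in K459 and 9.20 in TCPA18654, against 9.39 in TPC18645 and 10.31 in TPC20223. Markers of leukocytes (7 measured) averaged 6.16 to 6.42 over the lines, those of endothelium (5) 5.90 to 6.29, of Schwann cells and neurons (4) 7.36 to 8.11 and of acinar cells (7) 6.56 to 7.19. TCPA18654 and TPC18645, of different genotypes, were the closest lines, with 0.271% of all genes at least 2-fold apart, against 3.87% between the TPAC lines and 11.2% between the TPC lines. Each of these lines was thus nearer to a line of the other genotype than to its own. Whether a label was exchanged or the lines share an origin was not tested, and every difference between TPAC and TPC given here takes the labels as they stand. In cultures measured in bulk, fewer cells of a kind and less RNA per cell cannot be told apart.

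The upstream sequences of Sptssb, Degs2 and Sgpp2 are shown because Sptssb had the widest range of all 44 genes over the lines, and because Degs2 and Sgpp2 shared a pattern, with a signal in K459 more than 2-fold above every other line. Each is the 250 bases before a transcript start in RefSeq on GRCm38.p6, written 5′ to 3′ on the gene's strand, with matches to the E-box CACCTG or the GC box GGGCGG, on either strand, in capitals. Sptssb lies on the minus strand and its window, chr3:69859895-69860144, is inside the annotated gene, which begins further upstream. Degs2 (minus strand, chr12:108702307-108702556) was read just before the annotated gene, and the Sgpp2 window (plus strand, chr1:78310096-78310345) is inside the gene.
Sptssb: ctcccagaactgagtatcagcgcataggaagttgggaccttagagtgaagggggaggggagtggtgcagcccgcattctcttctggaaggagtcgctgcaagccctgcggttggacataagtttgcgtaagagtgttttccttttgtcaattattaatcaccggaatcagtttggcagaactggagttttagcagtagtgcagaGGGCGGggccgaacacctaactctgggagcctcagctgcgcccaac
Degs2: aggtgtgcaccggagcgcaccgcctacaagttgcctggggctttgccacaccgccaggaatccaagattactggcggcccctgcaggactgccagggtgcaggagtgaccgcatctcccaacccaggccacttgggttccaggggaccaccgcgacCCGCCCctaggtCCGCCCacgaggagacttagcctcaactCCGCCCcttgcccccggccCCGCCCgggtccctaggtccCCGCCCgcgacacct
Sgpp2: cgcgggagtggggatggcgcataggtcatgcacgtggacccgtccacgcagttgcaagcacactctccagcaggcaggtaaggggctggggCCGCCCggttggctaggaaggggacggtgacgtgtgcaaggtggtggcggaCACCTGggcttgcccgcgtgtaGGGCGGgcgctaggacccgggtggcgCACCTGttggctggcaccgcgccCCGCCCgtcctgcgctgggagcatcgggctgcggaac
The Sptssb window held 1 GC box and 9 CpG dinucleotides, that of Degs2 5 GC boxes and 18 CpG, and that of Sgpp2 2 E-boxes, 3 GC boxes and 24 CpG. None of the matches overlapped, and none of the 3 windows held the κB motif of NF-κB, searched on both strands. Among 32851 promoter windows of the same length, 17.2% held the E-box, 32.7% the GC box and 7.25% the κB motif. Of the 44 genes, 40 had at least 1 window there and 59 windows in all, of which 10 (16.9%) held the E-box, 29 (49.2%) the GC box and 5 (8.47%) the κB motif. Degs1, the paralog of Degs2, was 1 of the 5 genes with a κB match. How the signal of these 5 genes relates to the motif was not tested. The letters describe the sequence, and binding was not measured.

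With the lines grouped by genotype, none of the 44 genes was called higher or lower in TPAC than in TPC cells by limma with the thresholds used here (0.05 for the adjusted p and 0.58 for the size of the log2 difference), as 0% of all 19938 genes were in either direction. Their smallest p before adjustment was 0.119 and the adjusted p of each was at least 0.989. An unadjusted p under 0.05 was found in 0 of 44, where 156 of all genes (0.782%) had one. With the fold threshold added, 0.191% of all genes were higher and 0.231% lower at that unadjusted p. By sign 27 of 44 sphingolipid genes had a higher mean in TPAC and 17 a lower one, with a median log2 difference of 0.08, where over all genes 10411 were higher and 9320 lower with a median of 0.02. In 9 genes (20.5%) both TPAC lines lay above both TPC lines, against 13.7% of all genes, and in 5 (11.4%) both lay below, against 13.3%. Without TPC20223 the median of the 44 genes was -0.03.

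Signals were compared line by line as well. At least 2-fold separated the highest and the lowest line in 17 of the 44 genes (38.6%), against 15.9% of all genes, and with dim genes left out in 17 of 40 (42.5%), against 21.2%. Without TPC20223 the range reached 2-fold in 5 of 44 (11.4%, against 4.96% of all genes) and in 5 of 40 that were not dim (12.5%, against 6.7%). TPC20223 had the lowest signal of the lines in 25 of 44 genes (56.8%), against 38.8% of all genes, and the highest in 9 (20.5%), against 28.1%. Among genes that were not dim these counts were 24 of 40 (60.0%, against 40.6%) and 7 of 40 (17.5%, against 32.5%). These are counts with no test, because each line has 1 array.

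**Figure D1:**
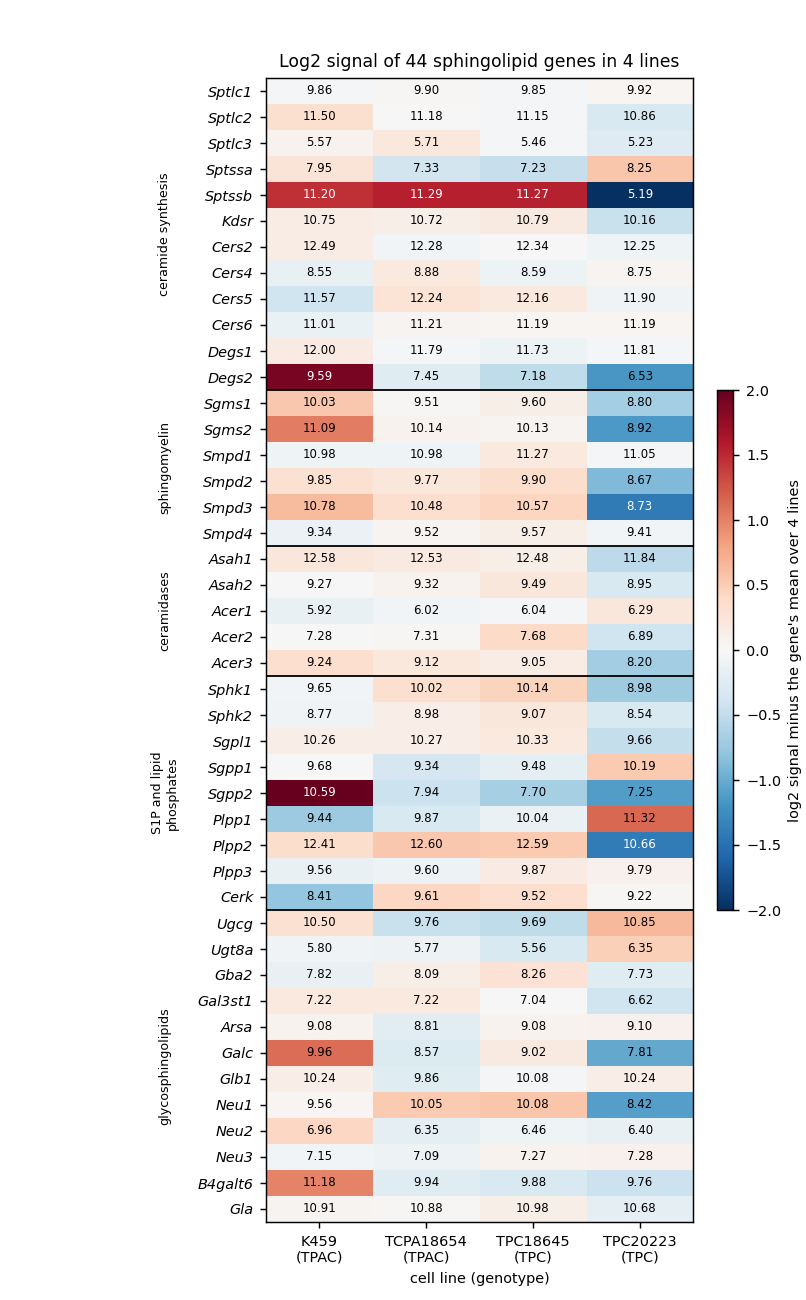
Log2 signal of the 44 sphingolipid genes (rows, by role) in the 2 TPAC and 2 TPC lines (columns); the printed number is the signal and the colour its distance from the gene's mean over 4 lines, which stops at 2 in either direction. TPC20223 was lowest in 25 genes, and Sptssb was at 5.19 there, against 11.20 to 11.29 in the other lines.

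Pairs of lines showed where the differences lay. TPC20223 and TPC18645, both TPC, were at least 2-fold apart in 11 of 44 genes (25%), against 11.2% of all genes. TPC20223 was the higher in 3 of these, against 5.97% of all genes, and the lower in 8, against 5.28%. Set against TPC20223, K459 was 2-fold higher in 12 genes (27.3%, against 5.11% of all) and lower in 1 (2.27%, against 5.79%), 13 in all (29.5%, against 10.9%). TCPA18654 was 2-fold higher than TPC20223 in 7 genes (15.9%, against 4.55%) and lower in 2 (4.55%, against 6.33%), which makes 9 (20.5%, against 10.9%). The K459 line was also 2-fold apart from its fellow TPAC line TCPA18654 in 5 genes (11.4%, against 3.87%), being higher in 4 (9.09%, against 2.62%) and lower in 1 (2.27%, against 1.25%). From TPC18645 it was 2-fold apart in 4 genes (9.09%, against 4.34%). Between TCPA18654 and TPC18645 none of the 44 genes reached 2-fold, against 0.271% of all genes, and the widest difference was 0.45 on the log2 scale.

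**Figure D2:**
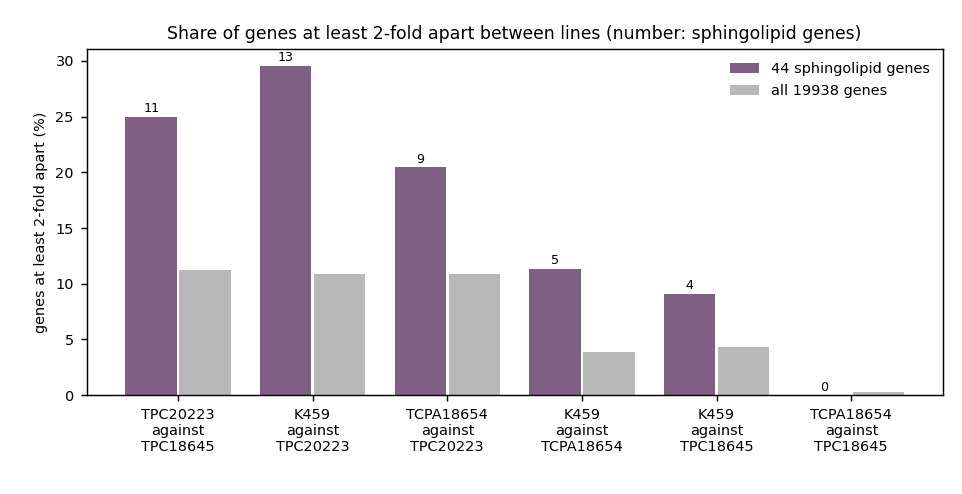
Share of genes (vertical axis, percent) at least 2-fold apart in each pair of lines (horizontal axis), for the 44 sphingolipid genes (purple, with their number) and all 19938 genes (grey). The sphingolipid share was 20.5% to 29.5% in the 3 pairs with TPC20223, and 0 genes were 2-fold apart between TCPA18654 and TPC18645.

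Ceramide synthesis starts with serine palmitoyltransferase. Sptlc1, the shared subunit, lay between 9.85 and 9.92 in the 4 lines. Sptlc2, a catalytic subunit, had a log2 signal of 11.50 in K459 and 11.18 in TCPA18654, against 11.15 in TPC18645 and 10.86 in TPC20223, differing by 0.34 (limma, standard error 0.20). Both TPAC lines were above both TPC lines, but TCPA18654 and TPC18645 were nearly equal. Sptlc3, the alternative catalytic subunit, was dim, at 5.57 in K459 and 5.71 in TCPA18654, against 5.46 in TPC18645 and 5.23 in TPC20223.

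The small subunits of the enzyme, which raise its activity and shape its choice of acyl-CoA, included the gene with the widest range. Sptssb had a log2 signal of 11.20 in K459 and 11.29 in TCPA18654, against 11.27 in TPC18645 and 5.19 in TPC20223. In 3 lines it was thus within 0.09, and in TPC20223 it was 6.06 lower than the mean of the others and under the limit for dim signal. The genotype means were 11.25 ± 0.06 in TPAC and 8.23 ± 4.30 in TPC cells (SD, n = 2 lines each), which differed by 3.02 (limma, standard error 2.23, adjusted p = 0.989), and without TPC20223 the difference was -0.03. Sptssa, its paralog, ran the other way in that line, with 7.95 in K459 and 7.33 in TCPA18654, against 7.23 in TPC18645 and 8.25 in TPC20223. The Sptssa difference of -0.10 came to 0.41 without TPC20223 and to 0.21 without TCPA18654. The ductal and epithelial markers (mean 7.17 in TPC20223, against 9.60 to 11.00 in the other lines) were low in the same line, and their part in this value was not tested.

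Kdsr, which reduces the first product, 3-ketosphinganine, was at 10.75 in K459 and 10.72 in TCPA18654, against 10.79 in TPC18645 and 10.16 in TPC20223. The ceramide synthases, which attach the fatty acid, each ranged over 0.67 or less, and this holds for the 4 among the 44 genes and for Cers3, a further one that was dim at 5.77 to 6.07. Cers2, with a preference for very long chains, was at 12.49 in K459 and 12.28 in TCPA18654, against 12.34 in TPC18645 and 12.25 in TPC20223. Cers5 had 11.57 in K459 and 12.24 in TCPA18654, against 12.16 in TPC18645 and 11.90 in TPC20223, and Cers6 had 11.01 in K459 and 11.21 in TCPA18654, against 11.19 in both TPC lines. These synthases both favour palmitoyl-CoA, and both were lowest in K459. Cers4 ranged from 8.55 in K459 to 8.88 in TCPA18654.

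The last step parts the desaturases. Degs1, which makes ceramide from dihydroceramide, was at 12.00 in K459 and 11.79 in TCPA18654, against 11.73 in TPC18645 and 11.81 in TPC20223, the same within 0.27 on the log2 scale. Degs2, which hydroxylates the base to give phytoceramide and is known from epithelia such as skin and gut, had 9.59 in K459 and 7.45 in TCPA18654, against 7.18 in TPC18645 and 6.53 in TPC20223. The TPAC lines were both higher, with means of 8.52 ± 1.51 in TPAC and 6.86 ± 0.46 in TPC cells (SD, n = 2 lines each), but their difference of 1.67 was not called (limma, standard error 0.83, adjusted p = 0.989). Between the TPAC lines alone Degs2 differed by 2.14, and without K459 the genotype difference was 0.60. The mean of the ductal and epithelial markers was also highest in K459 (11.00, against 7.17 to 9.74 in the other lines), and its part in the Degs2 value was not tested. Of the 12 ceramide synthesis genes, 8 were higher and 4 lower in TPAC by sign, with a median difference of 0.11, and 3 ranged over 2-fold or more.

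Among the 5 groups by role, the sphingomyelin genes had the largest median difference between the TPC lines. All 6 were lower in TPC20223 than in TPC18645, as were 31 of the 44 genes and 11095 of all 19938 genes. Their median log2 difference was -1.01, where the median over the 44 genes was -0.30 and over all genes -0.05. Smpd1 and Smpd4 differed least of the 6, by -0.22 and -0.16. Sgms2, the sphingomyelin synthase of the plasma membrane, was at 11.09 in K459 and 10.14 in TCPA18654, against 10.13 in TPC18645 and 8.92 in TPC20223. TCPA18654 and TPC18645 differed by 0.01, whereas K459 was 0.95 above TCPA18654, and TPC20223 minus TPC18645 was -1.21. The genotype difference was 1.09 (limma, standard error 0.58) and ran from 0.49 to 1.70 as single lines were left out. Sgms1, the Golgi enzyme, was likewise highest in K459 and lowest in TPC20223, with 10.03 in K459 and 9.51 in TCPA18654, against 9.60 in TPC18645 and 8.80 in TPC20223.

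Sphingomyelinases, which return sphingomyelin to ceramide, differed by type. Smpd3, a neutral sphingomyelinase, had 10.78 in K459 and 10.48 in TCPA18654, against 10.57 in TPC18645 and 8.73 in TPC20223. The last value was 1.88 below the mean of the other lines, and without that line the genotype difference of 0.98 came to 0.06. Smpd2, also neutral, was at 9.85 in K459 and 9.77 in TCPA18654, against 9.90 in TPC18645 and 8.67 in TPC20223. Smpd1, the acid enzyme of the lysosome, was not low in TPC20223 and had 10.98 in both TPAC lines, against 11.27 in TPC18645 and 11.05 in TPC20223. Its difference of -0.18 (limma, standard error 0.14) was among the 5 in which both TPAC lines were below both TPC lines. Smpd4 lay between 9.34 and 9.57. By sign 4 of the 6 genes were higher in TPAC, with a median difference of 0.55, and 4 ranged over 2-fold or more.

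**Figure D3:**
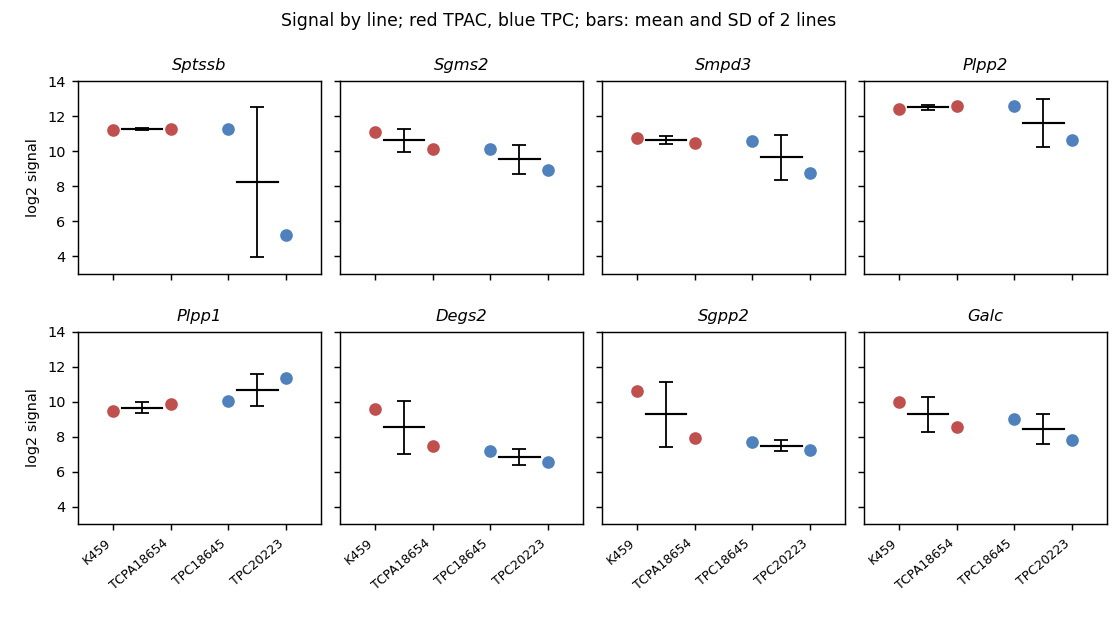
Log2 signal (vertical axis) of 8 sphingolipid genes in each line (horizontal axis), TPAC lines in red and TPC lines in blue, with black bars at the genotype mean and its SD over 2 lines. In Sptssb, Smpd3 and Plpp2 the low TPC mean came from TPC20223, and in Degs2 and Sgpp2 the high TPAC mean came from K459. The Galc difference of 0.85 was 0.16 without K459 and 0.25 without TPC20223.

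Each of the 5 ceramidases stayed within 0.40 over the lines other than TPC20223. Asah1, the acid ceramidase of the lysosome, had 12.58 in K459 and 12.53 in TCPA18654, against 12.48 in TPC18645 and 11.84 in TPC20223. Acer3, an alkaline ceramidase of the endoplasmic reticulum and Golgi, was at 9.24 in K459 and 9.12 in TCPA18654, against 9.05 in TPC18645 and 8.20 in TPC20223. In both genes the TPAC lines were higher than either TPC line, and the differences of 0.40 and 0.56 came to 0.08 and 0.13 without TPC20223. Acer1, an alkaline ceramidase known from skin, was dim, with 5.92 in K459 and 6.02 in TCPA18654, against 6.04 in TPC18645 and 6.29 in TPC20223. Acer2 and Asah2, the remaining alkaline enzyme and the neutral one, were lowest in TPC20223 at 6.89 and 8.95 and highest in TPC18645 at 7.68 and 9.49. In this group 4 of 5 genes were higher in TPAC by sign, with a median difference of 0.08.

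Genes that make and remove S1P showed no common direction once the phosphatases described below were included. Sphk1, the inducible sphingosine kinase, was at 9.65 in K459 and 10.02 in TCPA18654, against 10.14 in TPC18645 and 8.98 in TPC20223. The genotype difference of 0.28 was -0.31 without TPC20223. Sphk2, the other kinase, ranged from 8.54 in TPC20223 to 9.07 in TPC18645, and Sgpl1, the lyase that ends the pathway, from 9.66 to 10.33 in the same lines. Both kinases and the lyase thus had their lowest signal in TPC20223.

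Of the S1P phosphatases, Sgpp2 was like Degs2 in being highest in K459. Sgpp2 had 10.59 in K459 and 7.94 in TCPA18654, against 7.70 in TPC18645 and 7.25 in TPC20223, so that the difference between the TPAC lines was 2.65. The genotype means were 9.27 ± 1.87 in TPAC and 7.48 ± 0.32 in TPC cells (SD, n = 2 lines each), and their difference of 1.79 (limma, standard error 0.99, adjusted p = 0.989) was 0.47 without K459. Sgpp1, its paralog, had its highest signal in TPC20223, at 10.19, and 9.34 to 9.68 in the other lines. Degs2 and Sgpp2 were 2 of the 3 genes of the 44 in which K459 was at least 2-fold above every other line. The third was B4galt6, described with the glycosphingolipid genes. K459 was as far above every other line in 197 of all 19938 genes and in 6 of the 12 ductal and epithelial markers.

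The lipid phosphate phosphatases act on S1P, ceramide-1-phosphate, lysophosphatidic acid and phosphatidic acid at membranes, and TPC20223 had the highest signal of Plpp1 and the lowest of Plpp2. Plpp1 had a log2 signal of 9.44 in K459 and 9.87 in TCPA18654, against 10.04 in TPC18645 and 11.32 in TPC20223. Both TPAC lines were below both TPC lines. Plpp1 was the 1 gene of the 44 that was at least 2-fold higher in TPC20223 than in every other line, against 846 of all 19938 genes. In 6 of the 44, TPC20223 was at least 2-fold below every other line, against 588 of all genes. The Plpp1 difference of -1.03 was not called (limma, standard error 0.51, adjusted p = 0.989) and came to -0.39 without TPC20223. Plpp2 had 12.41 in K459 and 12.60 in TCPA18654, against 12.59 in TPC18645 and 10.66 in TPC20223, where it was 1.87 below the mean of the others. Plpp3 was at 9.56 in K459 and 9.60 in TCPA18654, against 9.87 in TPC18645 and 9.79 in TPC20223. Its difference of -0.25 (limma, standard error 0.12) was small and ran from -0.29 to -0.21 as single lines were left out. Because both TPAC lines were below both TPC lines, leaving out a line could not turn the sign.

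Cerk, the ceramide kinase, was low in K459 alone, with 8.41 there and 9.61 in TCPA18654, against 9.52 in TPC18645 and 9.22 in TPC20223. Its difference of -0.36 was 0.24 without K459. Over the 9 genes of S1P and phosphorylated lipids, 5 were higher and 4 lower in TPAC by sign, with a median difference of 0.07, and 5 ranged over 2-fold or more.

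**Figure D4:**
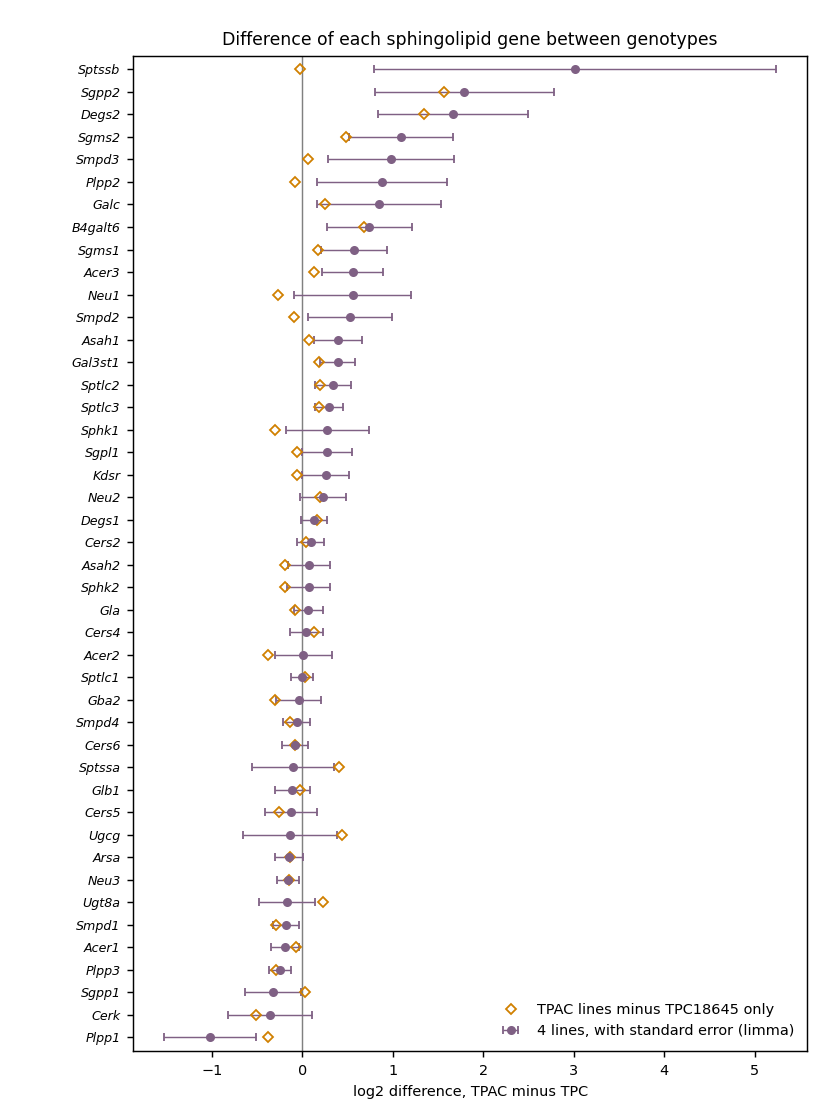
Log2 difference, TPAC minus TPC (horizontal axis), of each of the 44 sphingolipid genes (vertical axis, in order of the difference). Purple points with bars are the limma estimate over 4 lines and its standard error, and open orange diamonds are the difference with TPC18645 as the only TPC line, which for Sptssb was -0.03 in place of 3.02.

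The glycosphingolipid genes include those that make, extend and degrade these lipids. Ugcg, which makes glucosylceramide, was at 10.50 in K459 and 9.76 in TCPA18654, against 9.69 in TPC18645 and 10.85 in TPC20223. The high and the low lines each held 1 of either genotype, and the difference of -0.14 was 0.44 without TPC20223 and 0.23 without TCPA18654. B4galt6, a lactosylceramide synthase, had 11.18 in K459 and 9.94 in TCPA18654, against 9.88 in TPC18645 and 9.76 in TPC20223. Both TPAC lines were higher, and the difference of 0.74 (limma, standard error 0.47) came to 0.12 without K459. Gba2, the glucosylceramidase outside the lysosome, ranged from 7.73 in TPC20223 to 8.26 in TPC18645.

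On the galactosylceramide side, Ugt8a, the synthase known from myelin, was dim at 5.56 to 6.35. Gal3st1, which sulfates galactosylceramide to sulfatide, had 7.22 in both TPAC lines, against 7.04 in TPC18645 and 6.62 in TPC20223, a difference of 0.39 (limma, standard error 0.20). The lines of the genotypes did not overlap, but the signal was close to the limit for dim genes. Galc, the lysosomal galactosylceramidase, was at 9.96 in K459 and 8.57 in TCPA18654, against 9.02 in TPC18645 and 7.81 in TPC20223. It was thus highest in one TPAC line and lower in the other than in TPC18645, and the difference of 0.85 was 0.16 without K459 and 0.25 without TPC20223.

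Among the lysosomal hydrolases of sugar chains, Neu1, the lysosomal sialidase, had 9.56 in K459 and 10.05 in TCPA18654, against 10.08 in TPC18645 and 8.42 in TPC20223, more than 2-fold lower in TPC20223 than in each of the others. The Neu1 difference of 0.56 was -0.28 without that line. Neu3, the sialidase of the plasma membrane that acts on gangliosides, was at 7.15 in K459 and 7.09 in TCPA18654, against 7.27 in TPC18645 and 7.28 in TPC20223. Gla, the α-galactosidase that acts on globotriaosylceramide, was at 10.91 in K459 and 10.88 in TCPA18654, against 10.98 in TPC18645 and 10.68 in TPC20223. Glb1, the β-galactosidase, Arsa, the sulfatase of sulfatide, and the dim Neu2 each ranged over 0.61 or less. By sign 6 of the 12 genes were higher in TPAC and 6 lower, with a median difference of 0.01, and 4 ranged over 2-fold or more.

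Every line's value was given above for 31 of the 44 genes, and 18 of these kept the sign of their genotype difference whichever line was left out, whereas 13 did not. The 18 include the 9 genes with both TPAC lines above both TPC lines and the 5 with both below. In those genes leaving out a line cannot turn the sign, so the count does not measure how firm the differences are. The 13 genes not given line by line ranged over 0.07 to 0.85 on the log2 scale. Where 1 TPC line, TPC18645, was left out, 13 of the 44 genes (29.5%) had an unadjusted p under 0.05, against 16.8% of all genes in that fit, and the smallest adjusted p of the 44 was 0.0913 (limma). That fit sets both TPAC lines against TPC20223 alone.

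A further 51 measured genes of the pathway, of 57 listed, were read from the same fit. None of them was called in either direction, 24 were higher and 26 lower in TPAC by sign and 1 was equal, with a median difference of -0.04. TPC20223 had the highest signal in 21 of the 51 (28.1% of all genes) and the lowest in 16 (38.8% of all genes), and the contrast with the 44 genes was not tested. In TPC20223 against TPC18645, 8 of the 51 were at least 2-fold higher and 3 lower, where 5.97% and 5.28% of all genes were.

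**Figure D5:**
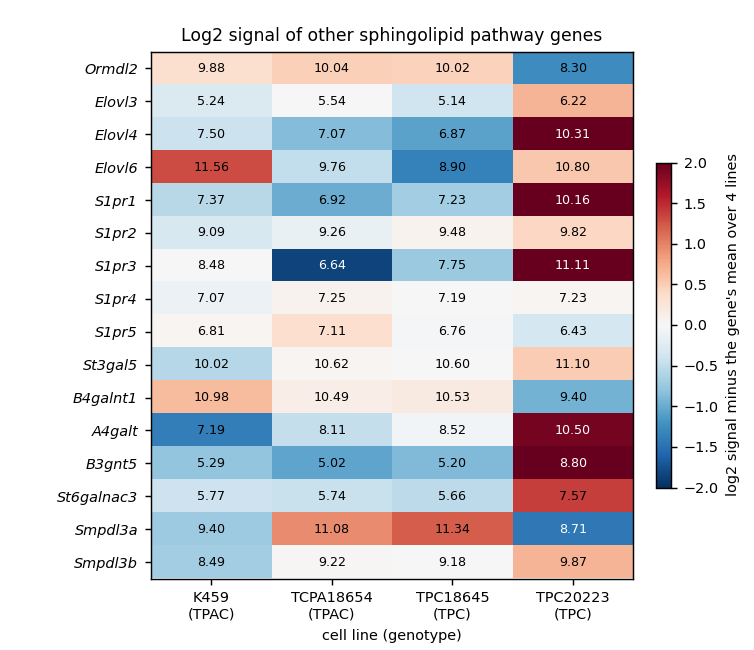
Log2 signal of 16 other genes of the pathway (rows) in the 2 TPAC and 2 TPC lines (columns), with colour for the distance from the gene's mean over 4 lines, which stops at 2 in either direction. The genes are those with a range of 2-fold or more and all S1P receptors, and S1pr1, S1pr3, Elovl4, A4galt and the dim B3gnt5 were highest in TPC20223.

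S1pr1 and S1pr3, receptors of S1P, were among the 8. S1pr1, a receptor known for cell migration and vessel integrity, had 7.37 in K459 and 6.92 in TCPA18654, against 7.23 in TPC18645 and 10.16 in TPC20223. S1pr3 had 8.48 in K459 and 6.64 in TCPA18654, against 7.75 in TPC18645 and 11.11 in TPC20223. For both receptors TPC18645 lay between the TPAC lines. For S1pr3, TCPA18654 minus TPC18645 was -1.11, where 0.271% of all genes were at least 2-fold apart in that pair. TPC20223 was the highest line for both receptors. Of the 15 mesenchymal and fibroblast markers 12 were highest in the same line, and their part in these values was not tested. S1pr2 showed a graded order, with 9.09 in K459 and 9.26 in TCPA18654, against 9.48 in TPC18645 and 9.82 in TPC20223, a difference of -0.48 (limma, standard error 0.18, adjusted p = 0.989). S1pr4 and the dim S1pr5 ranged from 6.43 to 7.25 over the lines, and Spns2, the S1P exporter, from 8.02 to 8.37.

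Among genes of synthesis and chain length, Elovl4, an elongase of very long chains, was at 7.50 in K459 and 7.07 in TCPA18654, against 6.87 in TPC18645 and 10.31 in TPC20223. Elovl6, which elongates palmitate, had 11.56 in K459 and 9.76 in TCPA18654, against 8.90 in TPC18645 and 10.80 in TPC20223. Ormdl2, of the family that restrains serine palmitoyltransferase, was lowest in the line in which Sptssb was, with 9.88 in K459 and 10.04 in TCPA18654, against 10.02 in TPC18645 and 8.30 in TPC20223. The other members of that family differed from it: Ormdl3 was highest in TPC20223, at 8.78 against 7.92 to 8.18 in the other lines, and Ormdl1 ranged from 8.82 in TCPA18654 to 9.28 in K459. The 13 measured genes of this group were 7 higher and 6 lower in TPAC by sign.

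The glycosyltransferases that act after lactosylceramide went both ways in TPC20223. A4galt, which makes globotriaosylceramide, was at 7.19 in K459 and 8.11 in TCPA18654, against 8.52 in TPC18645 and 10.50 in TPC20223, with both TPAC lines below both TPC lines. Its difference of -1.86 was not called (limma, standard error 0.81, adjusted p = 0.989). B3gnt5, which starts the lacto-series chains, was dim by its mean of 6.08. It had 5.29 in K459 and 5.02 in TCPA18654, against 5.20 in TPC18645 and 8.80 in TPC20223. B4galnt1, which makes the complex gangliosides, was opposed, with 10.98 in K459 and 10.49 in TCPA18654, against 10.53 in TPC18645 and 9.40 in TPC20223. Smpdl3a, a gene related in sequence to acid sphingomyelinase, separated the closest pair of lines from the others, with 9.40 in K459 and 11.08 in TCPA18654, against 11.34 in TPC18645 and 8.71 in TPC20223.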

How the data were processed

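RNA of 4 cell lines was measured on Affymetrix Mouse Gene 1.0 ST arrays. As deposited by the authors, the values are log2 signals from RMA (Affymetrix Expression Console 1.4, per the submitters' processing notes), which gives arrays nearly the same distribution, so a difference in total RNA cannot be seen. Array medians were 7.24 and 7.21 in TPAC and 7.19 and 7.26 in TPC lines, and so few arrays limit the precision. Of 28941 clusters, 21789 carried 1 symbol, 1621 several and 5531 none in the platform annotation, and 21698 matched RefSeq of GRCm38.p6. The brightest cluster stood for each of 19938 genes.

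The genotype comparison used lmFit and eBayes of limma 3.58.1 (two-sided, R 4.3.3), and p-values were adjusted over all genes by the Benjamini-Hochberg method. Alternatives were a common median, cyclic loess, averaging the clusters of each gene, leaving out dim genes, an intensity trend, the methods' t-test, other thresholds and leaving out each line. The limma fit was also run on simulated data in which every gene had the same spread. Spreads differed between genes in the real lines, so those runs do not vouch for the result here. Genes named with every line's value were the 10 of highest mean signal, those ranging over 2-fold or more and the 5 of smallest p in each direction, with others chosen after their values were seen. The 44 genes and the lists were chosen with earlier results of these data known.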

Additional observations from a re-analysis of the deposited data

How the results depend on the processing

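Each genotype had 2 arrays. Of the 44 genes, 0 were called under the common median, cyclic loess, the mean of clusters, genes that were not dim or the intensity trend. The same held for the unadjusted p with the fold threshold and for the methods' t-test. In that t-test 2 of the 44 (4.55%) had an unadjusted p under 0.05, against 2.59% of all genes. Fits without a line leave 1 array in a genotype and are given in this section by their differences only. The median difference of the 44 genes was 0.07 to 0.10 under other processing, and -0.03 to 0.30 without single lines, the lowest without TPC20223. At a log2 difference of 0.58 in place of 1, 20 of the 44 genes (45.5%) differed between TPC20223 and TPC18645 (22.4% of all genes), 20 between K459 and TPC20223 (22.3%), 20 between TCPA18654 and TPC20223 (21.8%), 10 (22.7%) between K459 and TCPA18654 (10.0%) and 10 between K459 and TPC18645 (10.9%).

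Leaving out single lines turned the sign of 13 named genes, and this was the one alternative that did. Over these fits the difference ran from -0.61 to 0.41 for Sptssa, -0.025 to 6.06 for Sptssb, -0.055 to 0.575 for Kdsr, -0.015 to 0.195 for Cers2, -0.46 to 0.21 for Cers5, -0.18 to 0.02 for Cers6 and -0.09 to 1.14 for Smpd2. It ran from -0.31 to 0.86 for Sphk1, -0.085 to 1.85 for Plpp2, -0.96 to 0.24 for Cerk, -0.72 to 0.44 for Ugcg, -0.28 to 1.39 for Neu1 and -0.085 to 0.215 for Gla. With a line left out, 1 array remained in a genotype and was taken to vary like the others. No paired analysis was possible because the labels give the lines no shared replicate number.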
